A study of Homo sapiens with 18 samples.

Results

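Protein arginine methyltransferases were followed by their transcripts in HEK293T cells. The 10 genes were taken by symbol from 37096 named genes, with earlier results of these data known: the 8 enzymes PRMT1, PRMT2, PRMT3, CARM1, PRMT5, PRMT6, PRMT7 and PRMT9, and the 2 partners of PRMT5, WDR77 and CLNS1A. WDR77 and CLNS1A are not methyltransferases themselves. All 10 passed the filter on low values, which kept 17755 genes.

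These enzymes move a methyl group from S-adenosylmethionine, which cells make from methionine, to the side chain of arginine. Type I enzymes (PRMT1, PRMT2, PRMT3, CARM1, PRMT6) end at asymmetric dimethylarginine, type II enzymes (PRMT5, PRMT9) at symmetric dimethylarginine, and PRMT7 stops at monomethylarginine. Histone tails, splicing factors and RNA-binding proteins with runs of arginine and glycine are their best known substrates. PRMT5 works in a complex with WDR77, and CLNS1A brings Sm proteins of the spliceosome to that complex.

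HEK293T is a human embryonic kidney line that is easily transfected. The genotype of all cells was labelled wild type. The 6 groups of 3 libraries were empty pLEX vector for 12 h in DMSO, MethionaseNLS for 12 h in DMSO, each of these 2 for 24 h in DMSO, and each of these 2 for 24 h with 5 µM Vps34-IN1 for 12 h. Methionase breaks down methionine, and the NLS directs it to the nucleus. Vps34-IN1 inhibits the lipid kinase VPS34, and DMSO is its vehicle. The study asks about class 3 PI3K in the nucleus and chromatin in fasting. No group carried a catalytically dead methionase, so the activity of the enzyme and the presence of a foreign nuclear protein cannot be told apart. The labels also leave the length of DMSO exposure unstated.

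The reads assigned to genes numbered from 18278586 to 20825232 per library. Levels are given as normalised reads, which are read counts divided by a size factor per library (0.892 to 1.098). Differences are in log2 units of the deposited variance-stabilised values, with their standard error (SE) and a limma p-value adjusted over the 17755 genes. On this scale differences are smaller than the log2 ratios of the reads, the more so for genes with few reads, such as PRMT9. A gene was called when that value fell below 0.05. All 9 HEK293T markers examined were detected, with LHX1 lowest at 2.13 to 14.9 normalised reads. Among the 6 markers of other cell types that were analysed, CD3E, PECAM1 and ALB did not exceed 20.3 normalised reads in any library and COL3A1 had 24.1 to 44.7, while COL1A1 (402 to 672) and CDX2 (365 to 553) were present in every group. The labels do not say that replicates came from separate cultures, so p-values measure the spread between these libraries, which may be technical.

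Per kilobase of exon, the enzymes spanned more than an order of magnitude. In empty vector cells at 24 h in DMSO, PRMT1, the main type I enzyme of most cells, had 1040 ± 37.3 normalised reads per kb (SD, n = 3 here and below). PRMT5, the main type II enzyme, had 960 ± 21.3 per kb, and CARM1, a coactivator that methylates histone H3, had 679 ± 24.6 per kb. A second tier held PRMT6 (315 ± 6.00 per kb), PRMT2 (265 ± 8.15 per kb) and PRMT3 (209 ± 8.83 per kb). The lowest were PRMT9 (87.9 ± 4.24 per kb) and PRMT7 (85.0 ± 3.05 per kb), whose levels lay within each other's spread. The lengths merge the exons of all annotated transcripts, 9458 bases for PRMT7 and 4019 for PRMT9, and this order depends on them. Before division by length, PRMT7 had 804 and PRMT9 353 normalised reads in these cells. WDR77, at 1000 ± 64.0 per kb, and CLNS1A, at 959 ± 22.3 per kb, stood near PRMT5. PRMT8, a brain enzyme outside the 10 genes, gave no more than 1 read in any library.

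**Figure D1:**
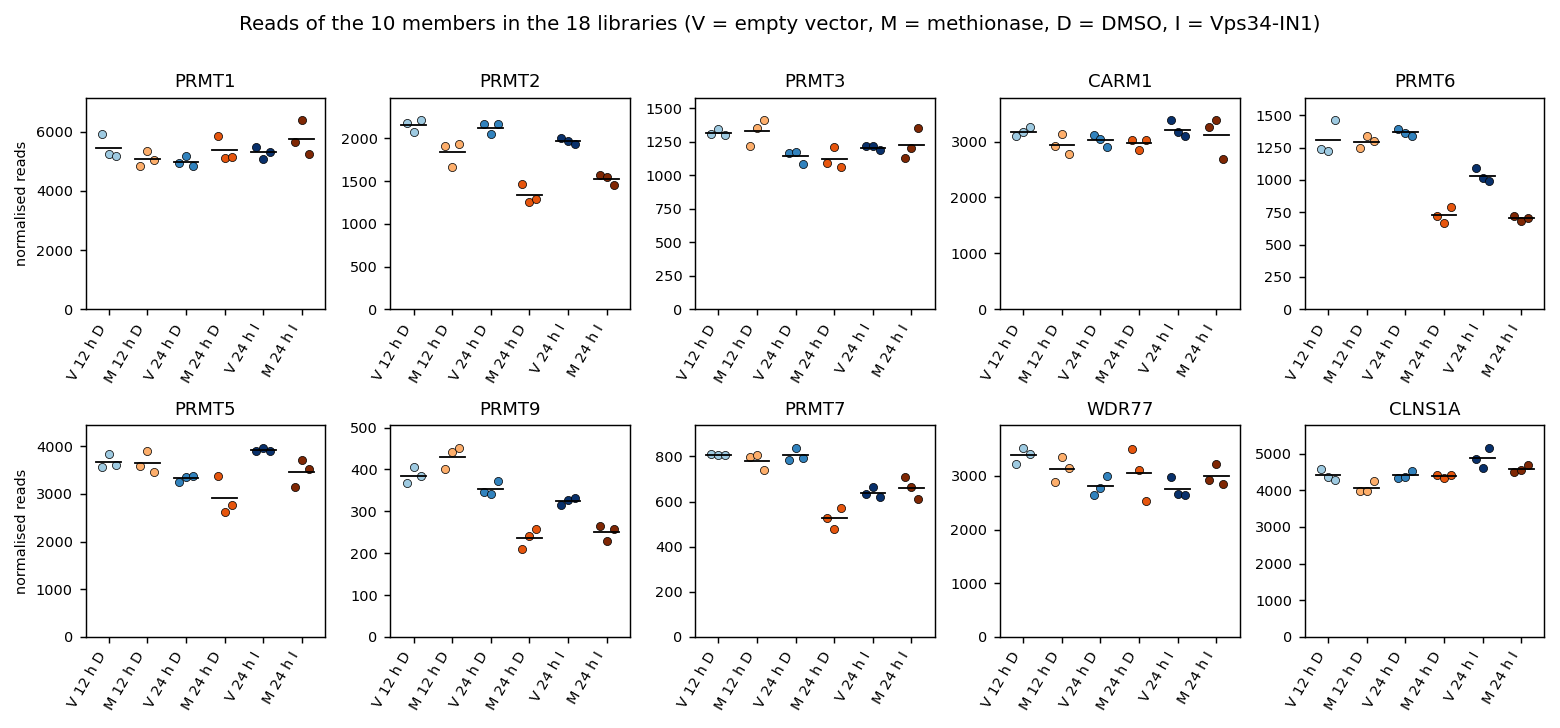
Normalised reads (y axis, starting at 0) of the 10 genes in each of the 18 libraries, by group on the x axis; points are libraries and lines are means of 3. PRMT6, PRMT2, PRMT7 and PRMT9 are low in methionase cells at 24 h in DMSO, where PRMT6 averages 726 against 1367 with the empty vector.

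The first question was how methionase and empty vector cells differed at 12 h in DMSO. None of the 10 genes passed the test with limma, while 2.17% of all genes tested did (0.681% higher and 1.49% lower). Without adjustment, 2 of the 10 (PRMT2 and CLNS1A) had a p below 0.05, and limma voom on the recovered reads called 0. PRMT6 read 1243, 1223 and 1461 with the empty vector and 1248, 1341 and 1301 with methionase, so the groups overlapped. PRMT2, a type I enzyme known as a coactivator of nuclear receptors, came nearest to a call. It read 2184, 2076 and 2211 with the empty vector and 1912, 1668 and 1929 with methionase. Every methionase library was below every vector library, by 0.22 on the log2 scale (SE 0.06), but the adjusted p was 0.06181. PRMT2 did pass in 4 of 26 alternative analyses, with adjusted p from 0.02257 to 0.2967.

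At 24 h in DMSO, 4 enzymes of middling or low level were lower in methionase cells. PRMT3, also of middling level, was not called, nor were PRMT1 and CARM1, and PRMT5 showed a small difference. PRMT6 fell to 0.531 of its vector level, PRMT2 to 0.629, PRMT7 to 0.655 and PRMT9 to 0.669. In all, 5 of the 10 genes were called, all lower, against 39.2% of all genes tested (18.1% higher and 21.1% lower). The median difference over all 10 was -0.11 against 0.007 over all genes tested. Counted in either direction, the share called is close to that of the transcriptome at large. How the 5 lower calls stand against the 21.1% called lower was not tested. In bulk RNA, fewer cells with a transcript and less of it per cell cannot be told apart.

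PRMT6, a type I enzyme that sits in the nucleus and methylates histone H3, had the largest difference of the 10. Its normalised reads were 1394, 1366 and 1342 with the empty vector and 721, 665 and 794 with methionase. All 3 methionase libraries lay far below all vector libraries. The difference was -0.84 (SE 0.07, adjusted p = 2.277e-09), and only 0.496% of the genes tested had a lower one.

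For PRMT2, the vector libraries read 2164, 2051 and 2165 and the methionase libraries 1462, 1259 and 1295, again without overlap. The difference was -0.64 (SE 0.06, adjusted p = 4.239e-08). PRMT7, the monomethylating enzyme, read 782, 837 and 794 with the vector and 529, 477 and 573 with methionase. These groups were also apart, with a difference of -0.54 (SE 0.07, adjusted p = 7.536e-07). PRMT9, the type II enzyme that methylates the splicing factor SF3B2, read 346, 341 and 373 with the vector and 211, 241 and 257 with methionase. Its groups did not overlap either, and the difference was -0.46 (SE 0.07, adjusted p = 2.425e-05). The calls of PRMT2, PRMT6, PRMT7 and PRMT9 held in all 26 alternative analyses.

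PRMT5 gave a small and unsteady difference. It read 3242, 3364 and 3375 with the vector and 3375, 2626 and 2758 with methionase, so methionase replicate 1 lay at the vector level and the groups overlapped. The difference was -0.19 (SE 0.08, adjusted p = 0.04594), and the call held in only 10 of 26 alternatives, with adjusted p from 0.001643 to 0.2526. Without methionase replicate 1 at 24 h in DMSO the difference was -0.297 (adjusted p = 0.001643). Leaving out methionase replicate 2 at 24 h in DMSO brought the difference to -0.121 (adjusted p = 0.2526), and it was also lost without methionase replicate 3 of that group, without any 1 of its 3 vector libraries, and with several libraries of other groups left out.

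PRMT1, CARM1, PRMT3, CLNS1A and WDR77 were not called at 24 h in DMSO. PRMT1 differed by 0.10 with a 95% interval from -0.05 to 0.25, and CARM1 by -0.03 with an interval from -0.17 to 0.12. PRMT3, which methylates the ribosomal protein RPS2, differed by -0.02 (-0.17 to 0.12). CLNS1A had a difference that rounds to 0, with an interval from -0.12 to 0.11. WDR77 differed by 0.11 (-0.07 to 0.29), and its methionase libraries were widely spread at 3506, 3110 and 2531. WDR77 passed the test in 1 alternative, at 0.231 (adjusted p = 0.02598) without methionase replicate 3 of that group.

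**Figure D2:**
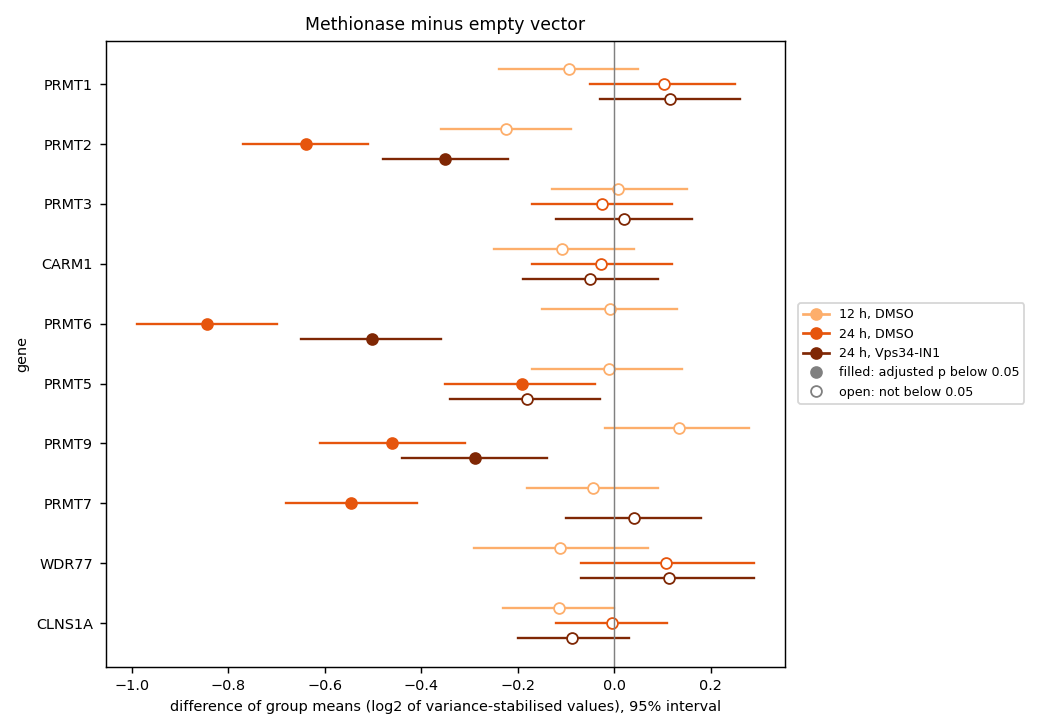
Methionase minus empty vector for each gene (log2 of the variance-stabilised values, x axis) at 12 h in DMSO, 24 h in DMSO and 24 h with Vps34-IN1; lines are 95% intervals not adjusted for the number of genes, and filled points passed the test. PRMT6 moves from -0.01 at 12 h to -0.84 at 24 h in DMSO and -0.50 with the drug.

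The methionase difference itself changed between 12 h and 24 h for the same 4 enzymes. The test of that change (the 24 h difference minus the 12 h difference, both in DMSO) called 4 of the 10, all negative, against 11.7% of all genes tested (5.33% positive and 6.33% negative). It was -0.83 for PRMT6 (SE 0.10, adjusted p = 6.982e-06), -0.59 for PRMT9 (SE 0.10, adjusted p = 0.0005692), -0.50 for PRMT7 (SE 0.09, adjusted p = 0.001087) and -0.41 for PRMT2 (SE 0.09, adjusted p = 0.003913). These 4 calls held in all 26 alternatives. PRMT5 (-0.287, adjusted p = 0.04887) and WDR77 (0.343, adjusted p = 0.03467) each passed in 1 alternative, without methionase replicate 1 and without methionase replicate 3 at 24 h in DMSO.

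With the empty vector alone, the share of members called over time was close to that of all genes tested. Between 12 h and 24 h, WDR77 was the 1 gene of the 10 called, against 11.5% of all genes tested (4.61% higher and 6.88% lower). It went from 3222, 3520 and 3413 to 2640, 2781 and 2996, without overlap, a difference of -0.26 (SE 0.09, adjusted p = 0.04836). That call held in only 10 of 26 alternatives. It was lost with any 1 of the 6 libraries compared left out, the adjusted p being 0.1961 without vector replicate 1 at 24 h in DMSO and 0.05065 without vector replicate 3. ATP5PB, which overlaps WDR77 on the other strand, went from 7388, 7452 and 7669 to 6360, 6688 and 6254 in the same libraries. The part of shared reads in the WDR77 difference was not tested. PRMT3 and PRMT5 were also lower in every vector library at 24 h than in every one at 12 h. Neither was called, at -0.19 (adjusted p = 0.0662) for PRMT3 and -0.14 (adjusted p = 0.2409) for PRMT5.

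With methionase, 6 of the 10 genes fell from 12 h to 24 h in DMSO, against 39.8% of all genes tested (18.4% higher and 21.3% lower). PRMT9 went from 400, 441 and 451 to 211, 241 and 257, or 0.549 of its 12 h mean. PRMT6 reached 0.560, PRMT7 0.674 and PRMT2 0.729 of their 12 h means, each without overlap. PRMT5 fell by 0.32 (SE 0.08, adjusted p = 0.001567) and PRMT3 by 0.23 (SE 0.07, adjusted p = 0.01048). The PRMT3 call was lost without methionase replicate 3 at 12 h (adjusted p = 0.0649) and without methionase replicate 3 at 24 h (adjusted p = 0.05118). PRMT3 with the empty vector differed by -0.19 (adjusted p = 0.0662) over the same time and passed in 4 alternatives.

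Promoter sequence is shown for 2 of the enzymes that fell at 24 h, PRMT6 and PRMT9, and for 2 genes that were not called there, CARM1 and CLNS1A. The bases lie upstream of RefSeq starts (GRCh38.p14), outside annotated exons, and are written 5′ to 3′ on the strand of the gene, with GGGCGG or its complement CCGCCC in capitals.
PRMT6, chr1:107056424-107056673, plus strand: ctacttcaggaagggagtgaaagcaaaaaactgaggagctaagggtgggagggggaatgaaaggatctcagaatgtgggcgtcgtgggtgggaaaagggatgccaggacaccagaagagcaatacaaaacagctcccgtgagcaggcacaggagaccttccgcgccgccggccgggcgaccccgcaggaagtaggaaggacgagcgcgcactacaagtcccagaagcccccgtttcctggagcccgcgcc
PRMT9, chr4:147684231-147684413, minus strand: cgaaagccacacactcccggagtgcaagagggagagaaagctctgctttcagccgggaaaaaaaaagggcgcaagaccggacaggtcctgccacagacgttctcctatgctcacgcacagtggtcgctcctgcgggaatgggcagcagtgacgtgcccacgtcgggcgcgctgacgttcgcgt
CARM1, chr19:10871303-10871512, plus strand: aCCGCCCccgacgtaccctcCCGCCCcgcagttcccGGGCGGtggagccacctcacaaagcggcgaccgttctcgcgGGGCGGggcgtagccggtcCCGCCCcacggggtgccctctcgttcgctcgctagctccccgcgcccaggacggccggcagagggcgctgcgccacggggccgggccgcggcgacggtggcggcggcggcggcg
CLNS1A, chr11:77637806-77638044, minus strand: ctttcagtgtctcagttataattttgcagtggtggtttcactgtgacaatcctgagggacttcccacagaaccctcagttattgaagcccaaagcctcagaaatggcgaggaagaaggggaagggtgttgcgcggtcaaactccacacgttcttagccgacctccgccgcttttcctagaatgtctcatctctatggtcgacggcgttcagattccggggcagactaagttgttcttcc

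Over the window from 250 bases before to 50 bases after the start, the GC box GGGCGG was found on either strand in 8 of the 10 genes, all but PRMT5 and PRMT6, and in 45.0% of 35116 promoters. A gene with several RefSeq starts counted when any of its windows matched, while the shares of all promoters are of single windows. The CARM1 window printed in part above held 5 matches, all within the bases shown, and the window of a further RefSeq start of CARM1, not printed, held others. The 2 matches each of PRMT9 and CLNS1A lay outside the bases shown. The E-box CACGTG was found in PRMT3 and WDR77 (7.26% of all promoters), the CCAAT box CCAAT in PRMT1 and PRMT5 (34.6%), and the ETS motif CCGGAAG in PRMT3 and CLNS1A (10.3%). The cAMP response element TGACGTCA (1.85%), the AP-1 motif TGANTCA (7.71%) and the amino acid response element TGATGNAAT (0.991%) had no match in any of the 10. None of these motifs contains another.

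With Vps34-IN1 alone, members were called in both directions, in shares close to those of all genes tested. In empty vector cells at 24 h, the drug lowered PRMT6 and PRMT7 and raised PRMT5 and CLNS1A. That made 4 of the 10 genes called, 2 higher and 2 lower, against 40.1% of all genes tested (20.2% higher and 19.9% lower). The median over the 10 was 0.03 against 0.002 for all genes.

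PRMT6 read 1096, 1013 and 992 with the drug, below all 3 DMSO libraries (1394, 1366 and 1342). The difference was -0.38 (SE 0.07, adjusted p = 0.000117). PRMT7 read 632, 665 and 622 with the drug against 782, 837 and 794 in DMSO. All drug libraries were lower, by 0.30 on the log2 scale (SE 0.07, adjusted p = 0.0009773). Both calls held in all 26 alternatives.

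PRMT5 read 3891, 3961 and 3908 with the drug, the highest group of the 6, against 3242, 3364 and 3375 in DMSO. The difference was 0.23 (SE 0.08, adjusted p = 0.01654). It was lost under quantile normalization (0.122, adjusted p = 0.1476) and without vector replicate 1 at 24 h in DMSO (0.213, adjusted p = 0.06124). CLNS1A read 4858, 4618 and 5153 with the drug against 4324, 4372 and 4520 in DMSO, which did not overlap. Its difference of 0.14 (SE 0.05, adjusted p = 0.04122) held in 18 of 26 alternatives and shrank to 0.024 under quantile normalization (adjusted p = 0.768). It was also lost when vector replicate 1 or 2 at 24 h in DMSO, or replicate 1 or 3 with the drug, or vector replicate 2 at 12 h was left out.

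Neither PRMT2 (-0.11, interval -0.24 to 0.03) nor PRMT9 (-0.10, interval -0.25 to 0.05) passed the test for the drug in empty vector cells. PRMT2 passed under quantile normalization alone, at -0.181 (adjusted p = 0.02727). WDR77, the core partner of PRMT5, differed by -0.02 (-0.20 to 0.16). Within each library, PRMT5 stood above WDR77 by 0.24 ± 0.06 log2 units in DMSO and by 0.49 ± 0.11 with the drug, and in methionase cells by -0.06 ± 0.18 in DMSO and 0.20 ± 0.10 with the drug. These gaps are not per length and are given for their change between groups, which was not tested.

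In methionase cells at 24 h, the drug raised PRMT7 and, less surely, PRMT5. These 2 of the 10 genes were called, against 7.93% of all genes tested (2.95% higher and 4.98% lower). PRMT7 read 708, 663 and 612 with the drug against 529, 477 and 573 in DMSO, so all drug libraries were higher. The difference was 0.29 (SE 0.07, adjusted p = 0.007997), and it missed the threshold only when the fit used just those groups (adjusted p = 0.1459). PRMT5 read 3141, 3717 and 3513 with the drug against 3375, 2626 and 2758, which overlapped. Its difference of 0.24 (SE 0.08, adjusted p = 0.04706) held in 7 of 26 alternatives and fell to 0.172 (adjusted p = 0.1881) without methionase replicate 2 at 24 h in DMSO. PRMT2 had 0.18 (adjusted p = 0.07935) and passed in 2 alternatives. PRMT6 averaged 726 ± 64.9 in DMSO and 705 ± 19.6 with the drug, a difference of -0.04 (interval -0.18 to 0.11).

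**Figure D3:**
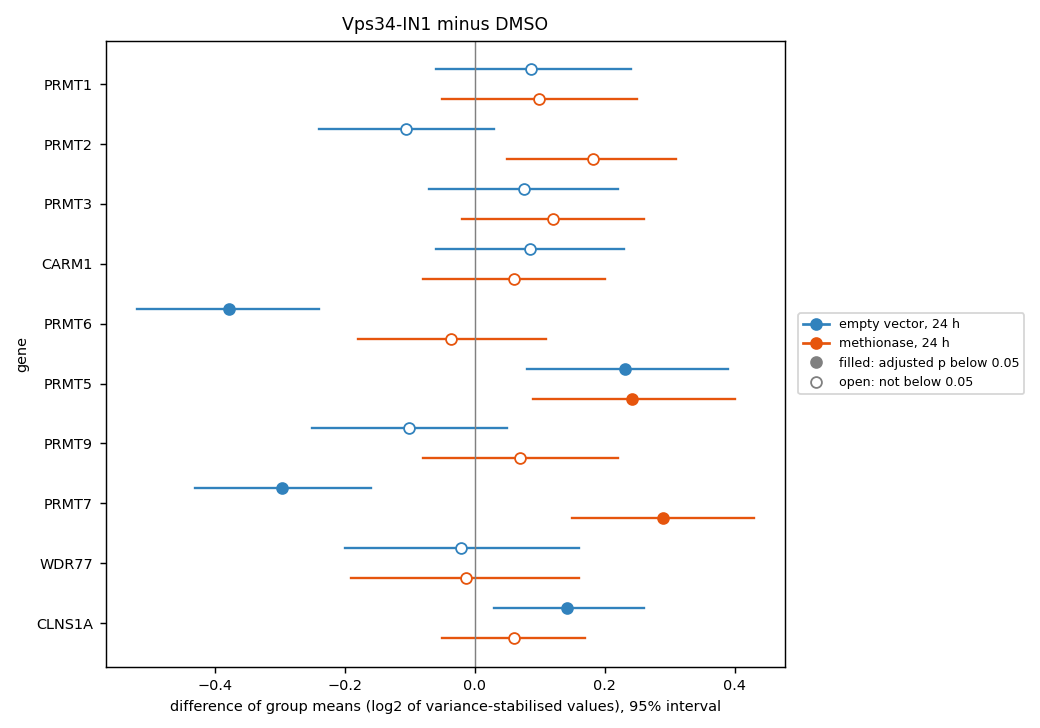
Vps34-IN1 minus DMSO at 24 h for each gene (log2 of the variance-stabilised values, x axis) in empty vector and in methionase cells; lines are 95% intervals not adjusted for the number of genes, and filled points passed the test. PRMT7 is at -0.30 with the empty vector and at 0.29 with methionase, on opposite sides of 0.

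In the presence of Vps34-IN1, methionase lowered PRMT6, PRMT2 and PRMT9 but not PRMT7. This made 3 of the 10 genes called, all lower, against 39.5% of all genes tested (17.3% higher and 22.2% lower). PRMT6 differed by -0.50 (SE 0.07, adjusted p = 4.228e-06), from 1096, 1013 and 992 with the vector to 723, 684 and 706 with methionase. PRMT2 went from 2004, 1970 and 1935 to 1577, 1543 and 1460, a difference of -0.35 (SE 0.06, adjusted p = 0.0001252). In both genes the groups stayed apart. PRMT9 went from 316, 326 and 331 to 266, 230 and 259, also without overlap, at -0.29 (SE 0.07, adjusted p = 0.00301). These 3 calls held in all 26 alternatives. PRMT7 was 640 ± 22.5 with the vector and 661 ± 48.3 with methionase, a difference of 0.04 with an interval from -0.10 to 0.18. PRMT5 had -0.18 (adjusted p = 0.0594) and passed in 3 alternatives, each without 1 methionase library, while PRMT1 (0.207) and WDR77 (0.213) passed as higher only under quantile normalization.

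The test of whether the drug changed the methionase difference called PRMT7, PRMT6 and PRMT2, against 21.8% of all genes tested (9.92% positive and 11.9% negative). The methionase difference with the drug exceeded that in DMSO by 0.59 for PRMT7 (SE 0.09, adjusted p = 9.715e-05), by 0.34 for PRMT6 (SE 0.10, adjusted p = 0.01377) and by 0.29 for PRMT2 (SE 0.09, adjusted p = 0.02376). For PRMT6 the vector level was lower with the drug while the methionase level, at 705 with the drug and 726 in DMSO, gave no call. For PRMT7 the vector level was lower and the methionase level higher with the drug. The PRMT7 and PRMT6 calls held in all 26 alternatives. PRMT9, at 0.17 (interval -0.04 to 0.38), was not called. The PRMT2 call held in 21 of 26 alternatives. It was lost, with adjusted p from 0.05155 to 0.06631, without vector replicate 1 or 3 at 24 h in DMSO, methionase replicate 2 at 24 h in DMSO, vector replicate 3 with the drug or methionase replicate 1 with the drug.

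The abundant enzymes carry most of the summed level per kb, a measure that depends on the merged exon lengths used. The 8 enzymes together had 3641 ± 52.8 normalised reads per kb with the vector at 24 h in DMSO and 3282 ± 221 with methionase. PRMT2, PRMT6, PRMT7 and PRMT9, grouped here after their values were seen, made up 20.7% ± 0.488 and 13.7% ± 0.846 of that sum. With Vps34-IN1 their share was 16.6% ± 0.168 with the vector and 13.5% ± 0.997 with methionase. At 12 h it was 19.3% ± 0.981 with the vector and 19.2% ± 0.884 with methionase.

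**Figure D4:**
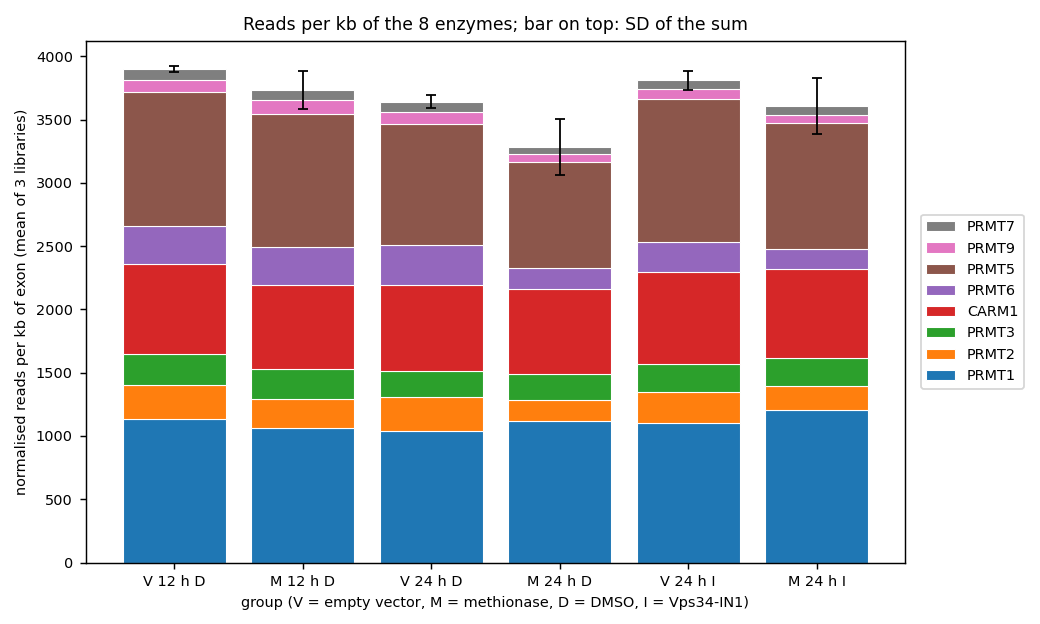
Mean normalised reads per kb of exon of the 8 enzymes, stacked by gene, for the 6 groups of 3 libraries; the bar on top is the SD of the sum. PRMT1, PRMT5 and CARM1 make up most of each column, and the column of methionase cells at 24 h in DMSO is lowest, at 3282.

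Across the 6 groups, PRMT6 had the widest range of group means among the 10, from 705 to 1367 normalised reads (1.94-fold), followed by PRMT9 (1.82-fold), PRMT2 (1.61-fold) and PRMT7 (1.53-fold). CARM1 had the narrowest, at 1.09-fold. In order of level, the first 3 groups of PRMT6 (vector at 24 h in DMSO, then vector and methionase at 12 h) overlapped, the vector with the drug stood apart, and both methionase groups at 24 h overlapped at the bottom. PRMT7 ordered differently: methionase in DMSO at 24 h was alone at the bottom, and both drug groups overlapped between it and the rest. The genes whose 6 group means most resembled those of PRMT6, of 9094 genes compared, were SOGA1 (Pearson r = 0.998), DDX28 (0.995) and TAOK2 (0.994). For PRMT9 they were ZBTB24 (0.993), PRR12 (0.993) and WWTR1 (0.990), for PRMT2 ABCF3 (0.997) and ZNF3 (0.996), and for PRMT7 CYBC1 (0.995), FAM114A2 (0.992) and RAI1 (0.987). These values describe 6 points that share their libraries.

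Measures of RNA makeup moved with the same groups. Transcripts of mitochondrial rRNA (RNR1 and RNR2) took 0.548% ± 0.0956 of the reads with the vector at 24 h in DMSO, 1.49% ± 0.536 with methionase, 1.2% ± 0.193 with the vector and the drug, and 2.18% ± 0.288 with both. In the same order, 58 replication-dependent histone genes, whose transcripts normally lack a poly-A tail, took 0.0163%, 0.0812%, 0.0776% and 0.169%. At 12 h the mitochondrial rRNA took 0.240% with the vector and 0.355% with methionase. The summed level of the 9 HEK293T markers was 22950 to 24660 normalised reads with the vector at 24 h in DMSO and 28820 to 37720 with methionase. With the drug it was 30520 to 33070 with the vector and 30220 to 34030 with methionase. VIM (9850 to 14100 over all libraries) and NEFM (5940 to 17600) had the most reads of the 9. The 6 markers of other cell types summed to 1050 to 1152 with the vector and 1014 to 1168 with methionase in DMSO, and to 800.9 to 1098 and 896.5 to 1069 with the drug. The part of these measures in the results above was not tested.

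By position, the 4 enzymes that fell most overlap little with other genes (all coordinates GRCh38, GENCODE 29). PRMT6 (chr1:107056679-107067636, plus strand), PRMT2 (chr21:46635167-46665124, plus) and PRMT9 (chr4:147637785-147684230, minus) shared 0.0% of their transcripts' 50-base words with other genes. PRMT7 (chr16:68310974-68358563, plus) shared 1.86%, with SMPD3, which had a mean of 7.52 normalised reads. The start of PRMT7 lies 28 bases from that of SLC7A6OS on the other strand. SLC7A6OS had 164 normalised reads with the vector at 24 h in DMSO, 196 with methionase, 252 with the drug and 240 with both.

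Other members share more with their neighbours, and the strand setting of the counting is not given in the sources used here. WDR77 (chr1:111439890-111449376, minus) shared 31.5% of its 50-base words with other genes. It shares 673 exon bases with AL390195.1 on its own strand and 350 with ATP5PB on the other strand, the latter with a mean of 6735 normalised reads against 3022 for WDR77. CARM1 (chr19:10871513-10923070, plus) shares 886 exon bases with YIPF2 on the other strand, at 819 reads. PRMT5 (chr14:22920511-22929585, minus) shares 938 with PRMT5-AS1, at 9.38 reads. PRMT5 also shares words with the pseudogene PRMT5P1, in all 17.0% with other genes. PRMT1 (chr19:49675786-49689029, plus) shares 366 exon bases with ADM5 on its own strand, at 23.3 reads. PRMT3 (chr11:20387530-20509294, plus) shared none and CLNS1A (chr11:77514936-77637805, minus) 0.4% of their words.

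Around the enzymes, cofactors and substrates moved both ways, and their counts can be read against the shares of all genes given above. Among 7 tested cofactors and adaptors, methionase at 24 h in DMSO raised 2 and lowered 1, with a median of 0.12 against 0.007 over all genes. BTG1, which binds PRMT1, rose by 1.15 (SE 0.09, adjusted p = 7.985e-10), and JMJD6, reported as an arginine demethylase and lysyl hydroxylase, rose by 0.38. MTAP, which clears methylthioadenosine, an inhibitor of PRMT5, fell by 0.17. With the drug in empty vector cells, 4 of the 7 rose and none fell (median 0.27). BTG1 rose by 1.13, RIOK1, which brings substrates to PRMT5 in place of CLNS1A, by 0.45, JMJD6 by 0.28 and BTG2 by 0.27. With the drug, methionase lowered 3 (BTG2 at -0.34, MTAP at -0.25 and RIOK1 at -0.24), and the drug changed the methionase difference of BTG1 by -0.98 (adjusted p = 4.883e-06).

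Of 21 Sm, LSm and SMN complex genes, which encode substrates of the PRMT5 complex and the machinery that loads them on RNA, methionase at 24 h in DMSO raised 4 and lowered 3 (median 0.03). GEMIN4 of the SMN complex fell by 0.81 (SE 0.08, adjusted p = 4.024e-08) and GEMIN7 by 0.38, while the Sm gene SNRPG rose by 0.41 and LSM4 by 0.30. The drug in empty vector cells raised 6 and lowered 2 (median 0.09), with GEMIN4 at -0.83. SMN1 and SMN2 are near-identical copies whose reads cannot be split with certainty. Among 5 readers of methylarginine, SMNDC1 (0.20) and SMN1 (0.26), which is also in the list before, were called higher with methionase at 24 h in DMSO. From 12 h to 24 h in DMSO, SMN1 differed by -0.94 with the vector and by -0.73 with methionase. With the drug, methionase raised none of the 5 readers and lowered 2, SMNDC1 (-0.35) and SND1 (-0.22). The drug in empty vector cells raised SMNDC1 by 0.54.

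Of 29 tested substrates of type I enzymes, CARM1 included, and of PRMT9, methionase at 24 h in DMSO lowered 13 and raised 5 (median -0.09). The RNA-binding protein gene SFPQ fell by 0.88 (SE 0.07, adjusted p = 3.268e-09). G3BP1 of stress granules fell by 0.51 and the splicing factor gene SF3B4 by 0.67. At 12 h, SFPQ (-0.31, adjusted p = 0.02908) and G3BP1 (-0.25, adjusted p = 0.02908) were among the genes of the list called lower. The drug in empty vector cells raised 8 and lowered 7. SF3B2, the substrate of PRMT9, rose by 0.46 and SFPQ fell by 0.49. For SFPQ, the methionase difference with the drug exceeded that in DMSO by 0.99 (adjusted p = 5.934e-07), and SFPQ was not called for methionase with the drug. DDAH1, which breaks down free methylarginines, rose by 0.32 with methionase and by 0.27 with the drug alone, 1 of the 2 tested genes of that step.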

How the data were processed

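Poly-A RNA of 18 libraries was prepared with a dUTP kit, per the labels' protocols. The authors deposited a single table in log2 units, variance-stabilised by them. STAR 2.7.10b, featureCounts, DESeq2, limma and hg38 are named, per the submitters' processing notes; their roles, the annotation and the strand setting are not given in the sources used here. All libraries carry 1 batch label. Of 37097 lines, 1 named no gene (at most 0.00216% of a library's reads) and was left out.

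The transformation (lowest value 5.4487) was undone to whole reads: 100% of values lay within 0.01 of one. Genes averaging at least 0.5 log2 above that lowest value were fitted with limma 3.58.1 (R 4.3.3), with 1 mean per group and a variance trend. P-values were adjusted by Benjamini-Hochberg over 17755 genes, within each of 9 comparisons, and a gene was called below 0.05. Exon lengths came from GENCODE 29 and were those of all annotated transcripts merged. The procedure was tested on simulated data. No 2 libraries of the same group were copies of each other.

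The members and gene lists were chosen with earlier results of these data known. Beyond the 10 members, genes were named from those lists (called genes with the lowest adjusted p, at most 4 per list and comparison), as neighbours or overlapping genes of a member, or as the 3 closest patterns for the 4 members with the widest range. Values of a few single genes that this rule picked are left out of the text. Genes of the closest patterns averaged at least 3 above the lowest value. The 26 alternatives were no filter, a stricter filter at 1 (14322 genes), quantile normalization, equal library medians, no variance trend, only the groups compared, a replicate block, limma voom on recovered reads, and each of 18 libraries left out.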

Additional observations from a re-analysis of the deposited data

Results flagged for a closer look

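The effect of methionase differed with time for 4 members by a test of the difference itself. The log2 difference at 24 h minus that at 12 h was -0.83 for PRMT6, -0.59 for PRMT9, -0.50 for PRMT7 and -0.41 for PRMT2. It differed between drug and vehicle at 24 h for 3 members, the difference with Vps34-IN1 minus that in DMSO being 0.59 for PRMT7, 0.34 for PRMT6 and 0.29 for PRMT2. Among these 7 values, that for PRMT7 with the drug comes from a level that was lower with Vps34-IN1 in empty vector cells. In methionase cells that level was higher with the drug. By the same tests, 11.7% of all genes tested were called for the change with time (5.33% positive and 6.33% negative). For the change with the drug the share was 21.8% (9.92% positive and 11.9% negative). How the 4 and 3 calls among the 10 members stand against these shares was not tested.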

How the results depend on the processing

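Of 90 results (10 members in 9 comparisons), 28 were called, 20 of them in all 26 alternatives. None of the called results reversed, 8 were lost in at least 1 alternative and 10 uncalled results passed in at least 1. The number of members called was as follows. For methionase at 12 h (0), it was 1 with equal library medians and 1 with only the groups compared, and 0 to 1 with a library left out. For methionase at 24 h with the drug (3), it was 5 under quantile normalization. For the drug with the empty vector (4), it was 2 to 4 with a library left out, 2 being without vector replicate 1 at 24 h in DMSO. For the drug with methionase (2), it was 1 with no filter, 1 with no variance trend, 0 with only the groups compared, and 1 to 3 with a library left out. For 24 h against 12 h with the vector (1), it was 0 with no filter, 0 under quantile normalization, 2 with equal library medians, 0 with no variance trend, 2 with only the groups compared, and 0 to 2 with a library left out. The causes were not tested. Replicate numbers did not pair the libraries (correlations of deviations from -0.308 to 0.162, and 0 of 21 same-numbered pairs were the best match of both libraries). With a replicate block, 1 member was called for the drug with methionase and 0 for 24 h against 12 h with the vector, and PRMT5 was lost at 24 h (adjusted p = 0.05403). Over all genes, methionase at 12 h called 385 (121 higher), from 18 without methionase replicate 2 to 1561 with only the groups compared, and 90 of 185 were higher under quantile normalization. With equal library medians, the calls higher and lower went from 3210 and 3745 to 4012 and 3176 for methionase at 24 h in DMSO, from 3079 and 3937 to 3738 and 3429 for methionase with the drug, from 3275 and 3783 to 3889 and 3269 for time with methionase, from 3595 and 3527 to 4544 and 2831 for the drug with the vector, from 523 and 885 to 899 and 605 for the drug with methionase, from 818 and 1221 to 640 and 1668 for time with the vector, and from 947 and 1124 to 1431 and 722 for methionase by time. Other all-gene counts ranged from 296 (only the groups compared) for the drug with methionase, and from 798 (without vector replicate 1 at 24 h in DMSO) to 3507 (only the groups compared) for time with the vector. PRMT9 and PRMT7 had the fewest reads per library of the members.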
